A study of Mus musculus with 6 samples.

Results

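The 10 genes described here serve the unfolded protein response and the integrated stress response: the endoplasmic reticulum (ER) stress sensors Ern1 and Atf6, the transcription factors Xbp1, Atf4, Atf5 and Ddit3, the ER chaperone Hspa5, the ER degradation gene Herpud1, and the stress targets Trib3 and Chac1. They were chosen by name as members of these pathways, with earlier results of these data known, and are 10 of the 32285 genes measured. A second entry named Ddit3 (ENSMUSG00000116429) had no UMI in the epithelial cells used here, so the entry with counts (ENSMUSG00000025408) was used. Crypt epithelium of the mouse ileum, sorted for EpCAM, an adhesion protein of epithelial cells, was profiled by single-cell RNA sequencing on the droplet platform MobiNova-100. The genes were compared between the secretory Paneth and goblet cells and the absorptive cells, and between genotypes. The control group held 3 libraries from Fpr2f/f mice, labelled WT, in which the gene for formyl peptide receptor 2 carries recombination sites and is otherwise intact, and the knockout group held 3 libraries from Fpr2VKO mice, which carry the same sites and the Cre recombinase under the Villin promoter, active throughout the intestinal epithelium. Mice were adult, sex- and age-matched, and on the C57BL/6J background, and the number of libraries matches the 3 mice per group that the study's legends give for the sequencing. The labels do not tie a library to an animal, so p-values between groups measure the spread between libraries.

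The ER folds and exports secreted and membrane proteins, and unfolded protein there is sensed by IRE1 (encoded by Ern1), ATF6 and PERK. IRE1 splices the mRNA of Xbp1, ATF6 is cut to release a transcription factor, and both raise chaperones such as the Hspa5 product BiP and degradation factors such as HERPUD1. PERK and the other kinases of the integrated stress response phosphorylate the translation factor eIF2, which favours translation of ATF4 and then transcription of Ddit3 (CHOP), Trib3 and Chac1. Paneth cells, which secrete antimicrobial peptides, and goblet cells, which secrete mucus, depend on this machinery in the gut.

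The stretch that IRE1 acts on is shown because the counts could not resolve it. In the coding sequence of Xbp1 (transcript Xbp1-201, 801 coding bases), 2 copies of the loop letters CNGCAGC were found whose cut sites lay 26 bases apart, at coding bases 479 to 504. The stretch lies at chr11:5524261-5524322 (GRCm38, plus strand), and the capitals mark the 26 bases between the cut sites, chr11:5524279-5524304, which IRE1 removes.
Xbp1 loops: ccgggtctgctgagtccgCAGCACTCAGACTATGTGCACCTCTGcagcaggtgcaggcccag
The deposited UMI counts were given per gene, so every Xbp1 value below is the sum of spliced and unspliced mRNA, and splicing itself was not measured.

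Promoter stretches are shown for the 3 genes in which stress response letters were found within 250 bases before the RefSeq start (GRCm38.p6). Searched on both strands were the ER stress response element ERSE (CCAAT and CCACG separated by 9 bases), ERSE-II (ATTGG and CCACG 1 base apart), the ATF4 and CHOP composite element (TGATGNAA), the XBP1 core (TGACGTGG) and the cyclic AMP element (TGACGTCA). Of the 10 genes, 9 had a RefSeq promoter entry and Atf6 had none. Hspa5 is shown as 30 bases around its ERSE, since the GENCODE annotation starts the gene inside the RefSeq stretch (chr2:34772020-34772049, plus strand). That start, at 34771970, lies before the bases shown, so by GENCODE the ERSE lies inside the gene. Herpud1 (chr8:94386179-94386428, plus strand) and Chac1 (chr2:119350992-119351241, plus strand) are shown over 250 bases. The GENCODE start of Chac1, at 119351229, lies shortly before the end of its stretch. Capitals mark the ERSE in Hspa5, the composite element on the opposite strand and then the ERSE-II in Herpud1, and the composite element on the opposite strand in Chac1. The Herpud1 stretch ends in letters that match an ERSE up to its last base, whose position lay outside the window searched.
Hspa5: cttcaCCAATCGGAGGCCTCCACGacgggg
Herpud1: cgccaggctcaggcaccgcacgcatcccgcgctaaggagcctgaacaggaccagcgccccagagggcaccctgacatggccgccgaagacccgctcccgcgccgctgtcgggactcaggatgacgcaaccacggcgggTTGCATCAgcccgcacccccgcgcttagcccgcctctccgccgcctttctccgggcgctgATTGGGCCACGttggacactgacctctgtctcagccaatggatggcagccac
Chac1: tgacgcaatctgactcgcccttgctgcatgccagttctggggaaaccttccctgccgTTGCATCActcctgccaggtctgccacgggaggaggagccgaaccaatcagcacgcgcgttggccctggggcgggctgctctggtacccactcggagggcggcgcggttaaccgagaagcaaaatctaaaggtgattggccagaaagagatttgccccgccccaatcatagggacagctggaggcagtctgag
The Hspa5 ERSE lay 47 to 65 bases before the RefSeq start. Among 32851 promoters of this length, 37 (0.113%) held an ERSE, 10 (0.0304%) an ERSE-II and 1134 (3.45%) the composite element. The XBP1 core was in 185 promoters (0.563%) and the cyclic AMP element in 508 (1.55%), none of them among the 10 genes. A match of letters is a description of the sequence and not of a bound site.

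The 6 libraries held 90142126 to 189516114 UMIs (unique molecular identifiers, each marking 1 captured molecule). Barcodes with at least 1000 UMIs, at least 500 genes and at most 20% mitochondrial UMIs numbered 2643, 4722 and 2836 in Fpr2f/f, against 2267, 2768 and 1868 in Fpr2VKO libraries. Before the mitochondrial limit the median share of mitochondrial UMIs was 26.3% to 39.3%, highest in Fpr2VKO replicate 1, which also had the most UMIs. After doublet removal 16676 cells remained, of which 229 carried 1 of 114 barcodes kept in more than 1 library. No library was a copy of another. Fpr2 had no UMI in the kept epithelial cells or in the barcodes under 100 UMIs of any Fpr2f/f or Fpr2VKO library. Loss of Fpr2 could therefore not be checked, and the groups are those of the labels.

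The cells formed 28 clusters, named from marker genes with the ending -like. The 10 genes and the other pathway genes were kept out of the genes that formed the clusters and out of the markers, so their levels did not shape the classes compared. There were 1191 Paneth-like, 1649 goblet-like, 3379 enterocyte-like, 850 stem-like, 5274 transit-amplifying (TA)-like, 421 enteroendocrine-like and 327 tuft-like cells, and 3316 cells stayed unnamed. Since markers chose the names, their levels are a description of the classes. The 10 Paneth markers summed to 396107 to 496321 CPM (UMIs of a gene relative to all UMIs of the same cells) in Paneth-like cells against 643 to 3102 in enterocyte-like cells, and the 9 goblet markers to 100341 to 138234 CPM in goblet-like cells against 440 to 1683 in enterocyte-like cells. Markers of goblet cells reached 17923 to 28556 CPM in Paneth-like cells, and markers of Paneth cells 3123 to 7619 CPM in goblet-like cells. All 10 Paneth and all 9 goblet markers were above 0 in each of these sums, and the part of this mixing in the results was not tested.

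Levels are given as TMM-scaled CPM, which is the CPM of a gene in a library's cells of 1 class, divided by a factor that sets the bulk of genes equal between classes. The factor mattered in Paneth-like cells, where defensins and Lyz1 took up 38.2% to 49.0% of all UMIs, against at most 0.643% in goblet-like and 0.296% in enterocyte-like cells, with a factor of 0.331 to 0.481 in Paneth-like cells. Without it the median gene lay 1.45 lower on the log2 scale in Paneth-like than in enterocyte-like cells, and 1.36 lower than in goblet-like cells. All Paneth values are therefore relative to the other genes of these cells.

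**Figure D1:**
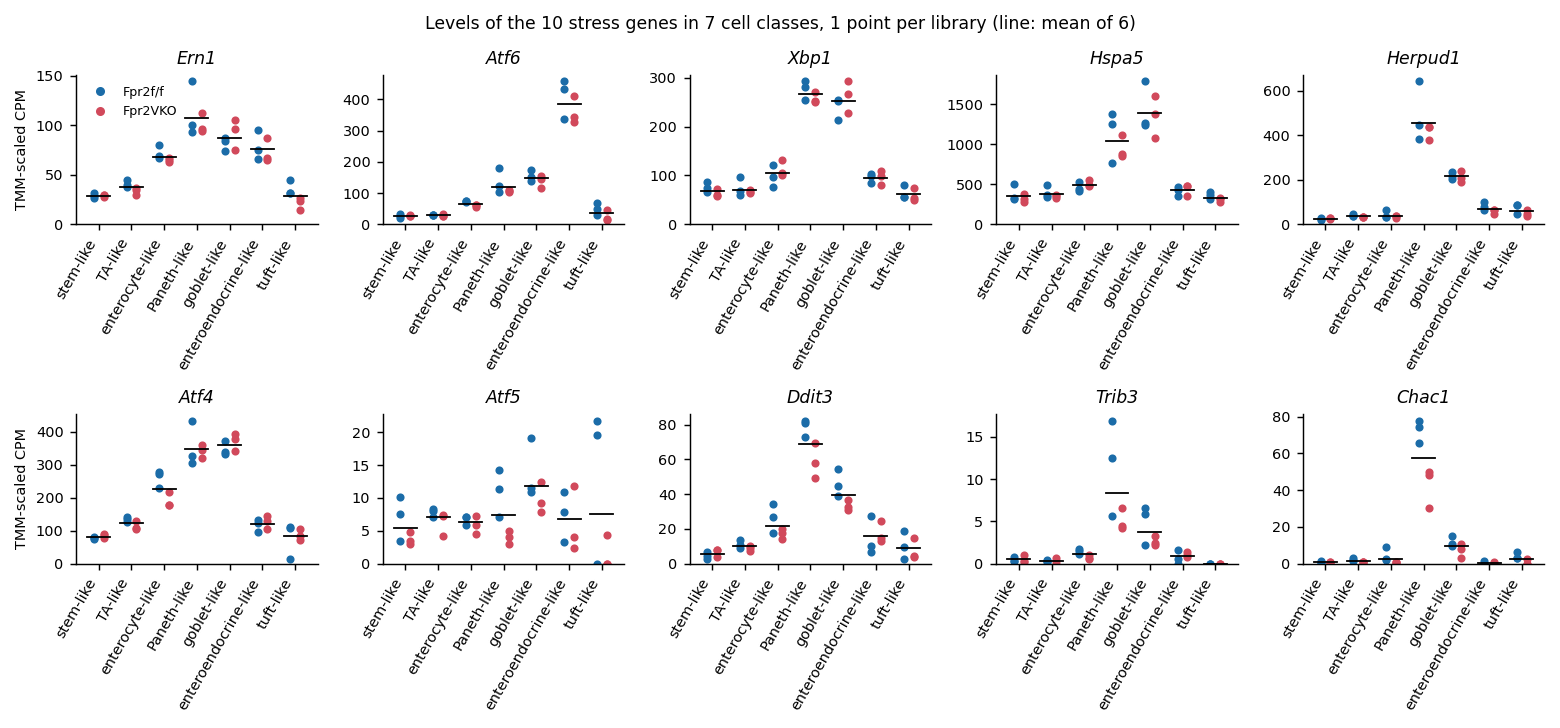
TMM-scaled CPM of the 10 genes (vertical axis, 1 panel per gene with its own scale) in 7 cell classes, 1 point per library, blue for Fpr2f/f and red for Fpr2VKO, with a line at the mean of the 6 libraries. Herpud1, Ddit3, Trib3 and Chac1 were highest in Paneth-like cells, Hspa5 in goblet-like cells, and Atf6 in enteroendocrine-like cells at 328 to 458 CPM.

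Of the sensors, Ern1 (ENSMUSG00000020715, chromosome 11, 106394650 to 106487852, minus strand) ranged in Paneth-like cells from 93.2 CPM over a median of 98.5 to 145, in goblet-like cells from 73.5 over 85.5 to 105, and in enterocyte-like cells from 62.9 over 66.7 to 80.0. The Paneth-like libraries all lay above the enterocyte-like ones, while goblet-like and enterocyte-like libraries overlapped. Enteroendocrine-like cells lay between goblet-like and enterocyte-like cells and overlapped both. In TA-like, stem-like and tuft-like cells Ern1 stayed at or below 44.7 CPM, under every library of the classes above.

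Atf6 (ENSMUSG00000026663, chromosome 1, 170704674 to 170867771, minus strand) had another order of classes. It was highest in enteroendocrine-like cells, the hormone-secreting cells, at 385 ± 56.2 CPM (mean ± SD, n = 6 libraries), with no overlap with any other class. In goblet-like cells it ranged from 117 over a median of 147 to 175, and in Paneth-like cells from 102 over 107 to 179. The goblet-like and Paneth-like ranges overlapped, and both lay above the enterocyte-like range of 56.2 to 73.3 CPM.

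Xbp1 (ENSMUSG00000020484, chromosome 11, 5520659 to 5525893, plus strand), whose spliced form drives ER expansion in secretory cells, ranged from 250.5 over a median of 262 to 294 CPM in Paneth-like cells and from 213 over 254 to 293 in goblet-like cells. In enterocyte-like cells it ranged from 75.2 over 103 to 131 CPM. The secretory classes overlapped each other and lay above every other class, whose ranges overlapped from enterocyte-like down to tuft-like cells.

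Hspa5 (ENSMUSG00000026864, chromosome 2, 34771970 to 34777547, plus strand) encodes BiP, the main chaperone of the ER lumen. It ranged from 1074 over a median of 1326 to 1798 CPM in goblet-like cells and from 764 over 998 to 1378 in Paneth-like cells. In enterocyte-like cells it ranged from 416 over 485 to 552 CPM, below all goblet-like and Paneth-like libraries, and neighbouring classes below the enterocyte-like cells overlapped.

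Herpud1 (ENSMUSG00000031770, chromosome 8, 94386438 to 94395377, plus strand), which organizes the ubiquitin ligase complex of ER-associated degradation, separated the classes most clearly. It ranged from 378 over a median of 436 to 641 CPM in Paneth-like, from 189 over 213 to 239 in goblet-like, and from 29.9 over 34.0 to 64.1 in enterocyte-like cells. The 3 classes did not overlap. Enteroendocrine-like cells, at 47.8 to 102 CPM, overlapped with enterocyte-like cells.

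Atf4 (ENSMUSG00000042406, chromosome 15, 80255184 to 80257541, plus strand) is the central transcription factor of the integrated stress response and is controlled largely at translation, which was not measured here. Its mRNA ranged from 331 over a median of 357 to 393 CPM in goblet-like cells and from 306 over 336 to 434 in Paneth-like cells. In enterocyte-like cells it ranged from 176 over 222 to 279 CPM. The Paneth-like and goblet-like ranges overlapped, enterocyte-like cells taken as a whole lay below both, and the TA-like range of 105 to 140 CPM lay lower still. The enterocyte-like clusters differed in Atf4, as described below.

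Atf5 (ENSMUSG00000038539, chromosome 7, 44812256 to 44816658, minus strand), a related factor that also responds to mitochondrial stress, was sparse, with 94 UMIs in Paneth-like, 184 in goblet-like and 181 in enterocyte-like cells. It ranged from 7.93 to 19.1 CPM in goblet-like, 3.04 to 14.3 in Paneth-like and 4.44 to 7.21 in enterocyte-like cells. Its ranges overlapped in neighbouring classes throughout. Its exons overlap those of Il4i1 by 153 bases and of Nup62 by 288 bases on the opposite strand, and the strand setting of the counting was not given in the sources used here.

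Ddit3 (chromosome 10, 127290774 to 127296288, plus strand) encodes CHOP, a factor linked to cell death after prolonged stress. It ranged from 49.6 over a median of 71.1 to 82.3 CPM in Paneth-like, from 30.7 over 37.7 to 54.3 in goblet-like, and from 14.4 over 18.8 to 34.2 in enterocyte-like cells. Paneth-like libraries lay above all enterocyte-like ones, with goblet-like libraries between and overlapping both. Its exons overlap those of Mars by 261 bases on the opposite strand.

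The downstream genes Trib3 and Chac1 were highest in Paneth-like cells. Trib3 (ENSMUSG00000032715, chromosome 2, 152337422 to 152344032, minus strand), a pseudokinase that restrains ATF4 and CHOP, ranged from 4.26 over 6.11 to 16.9 CPM in Paneth-like cells (104 UMIs in all) and from 2.22 over 2.84 to 6.59 in goblet-like cells (62 UMIs). In enterocyte-like cells it ranged from 0.517 to 1.66 CPM (31 UMIs), below both.

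Chac1 (ENSMUSG00000027313, chromosome 2, 119351229 to 119354381, plus strand), which degrades glutathione, ranged from 30.1 over a median of 58.0 to 77.7 CPM in Paneth-like cells (782 UMIs). In goblet-like cells it ranged from 2.96 over 10.1 to 14.8 CPM (154 UMIs), and in enterocyte-like cells from 0.497 over 1.39 to 8.75 (83 UMIs). No Paneth-like library overlapped with another class, while goblet-like and enterocyte-like libraries did.

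Free RNA was measured beside the low values. In barcodes with fewer than 100 UMIs, Herpud1 reached 37.1 to 55.8, Ddit3 13.2 to 29.5, Chac1 1.53 to 6.86 and Trib3 0.323 to 1.68 CPM without TMM scaling. The enterocyte-like cells on the same scale held 32.1 to 67.3, 16.2 to 35.9, 0.557 to 9.19 and 0.519 to 1.74 CPM of these 4 genes, so the ranges overlapped. In the same library the enterocyte-like value exceeded free RNA in 6 of 6 libraries for Ddit3, 4 of 6 for Trib3, and 1 of 6 for Herpud1 and for Chac1, Fpr2f/f replicate 2 in both. The goblet-like levels of Herpud1, 185 to 227 CPM, and the Paneth-like levels of Chac1, 10.7 to 37.3 CPM, were above every free RNA value. Hspa5 in enterocyte-like cells, at 466 to 568 CPM, was also above its free RNA range of 208 to 255 CPM. Paneth-like values on this scale are lowered by the share of defensins, and those of Ern1, Atf6, Atf4, Atf5, Ddit3, Hspa5 and Trib3 overlapped with their free RNA ranges, while those of Xbp1, Herpud1 and Chac1 lay above. In goblet-like cells Chac1 and Ddit3 overlapped with their free RNA ranges.

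Whether the stress genes differ between secretory and absorptive cells was tested within libraries. In Paneth-like against enterocyte-like cells, 9 of the 10 genes were higher, where 36.4% of the 11274 genes tested were higher and 35% lower (edgeR quasi-likelihood test, adjusted p under 0.05). The median log2 fold change of the 10 genes was 1.14 against 0.02 for all genes tested. Chac1 differed most, by 4.37 ± 0.35 on the log2 scale (estimate ± SE, adjusted p = 5.84e-08, higher in 6 of 6 libraries), which is 20.6-fold. Fpr2f/f replicate 2 held 58 of the 83 Chac1 UMIs of enterocyte-like cells, and without it the difference was 5.37 (adjusted p = 4.80e-19). It was also larger at mitochondrial limits of 10% and 40% (6.83 and 5.25), with a UMI limit per library (5.36) and without alignment (5.65). Chac1 folds against enterocyte-like cells rest on few UMIs there, and in the main setting only Fpr2f/f replicate 2 exceeded its own free RNA. At the 10% limit the Fpr2VKO libraries kept 33, 42 and 26 enterocyte-like cells. Herpud1 was 11.04-fold higher (3.46 ± 0.17, adjusted p = 1.26e-12) and Trib3 6.61-fold higher (2.72 ± 0.33, adjusted p = 1.57e-08).

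The remaining members differed by less. Ddit3 was 3.01-fold higher in Paneth-like than in enterocyte-like cells (log2 1.59 ± 0.12, adjusted p = 2.04e-13), Xbp1 2.43-fold (1.28 ± 0.09) and Hspa5 2.00-fold (1.00 ± 0.10). The sensors followed with 1.70-fold for Atf6 (0.76 ± 0.09) and 1.46-fold for Ern1 (0.55 ± 0.10), and Atf4 was 1.48-fold higher (0.56 ± 0.10). Each of these was higher in 6 of 6 libraries with an adjusted p of at most 1.51e-05. The sums add the UMIs of all cells of a class, so deeper cells weigh more. Not every cluster shared these differences, as described below. Atf5 showed a log2 difference of 0.00 ± 0.27 (adjusted p = 0.996) and was higher in 3 of 6 libraries.

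These directions hold relative to the median gene. On library totals alone, without the TMM factor, 3 members were higher in Paneth-like cells (Trib3, Chac1 and Herpud1) and 5 were lower (Ern1, Atf4, Atf5, Atf6 and Hspa5), as were 9397 of all 11274 genes, with 877 higher. Measured from the median of all genes, the differences then stood at 4.39 for Chac1, 3.46 for Herpud1, 1.28 for Xbp1 and 1.00 for Hspa5 on the log2 scale.

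In goblet-like against enterocyte-like cells, all 10 genes were higher, where 32.8% of the genes tested were higher and 31.9% lower. The median log2 fold change was 1.13 against 0.00 for all genes. Herpud1 led with 5.25-fold (log2 2.39 ± 0.16, adjusted p = 2.97e-10), followed by Chac1 with 3.38-fold (1.76 ± 0.44, adjusted p = 0.00332, with 2.85 without Fpr2f/f replicate 2 and 3.60 and 2.37 at mitochondrial limits of 10% and 40%) and Trib3 with 3.29-fold (1.72 ± 0.37, adjusted p = 0.000142). Hspa5 was 2.68-fold higher (1.42 ± 0.10), Xbp1 2.28-fold (1.19 ± 0.09) and Atf5 1.73-fold (0.79 ± 0.21, adjusted p = 0.00124). Atf6 was higher by 1.07 ± 0.09 on the log2 scale.

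Ddit3, Atf4 and Ern1 completed the goblet-like list, at 1.72-fold (0.78 ± 0.12), 1.52-fold (0.61 ± 0.10) and 1.19-fold (0.25 ± 0.10, adjusted p = 0.025). All 10 were higher in 6 of 6 libraries. The call for Ern1 was lost in 6 of the 16 alternative settings, among them omission of Fpr2VKO replicate 2 (0.20, adjusted p = 0.106) or of replicate 3 of that group (0.19, adjusted p = 0.137). The scaling mattered less here, since without TMM the median gene lay 0.08 lower in goblet-like cells and 9 of the 10 genes were still higher, with Ern1 the exception.

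**Figure D2:**
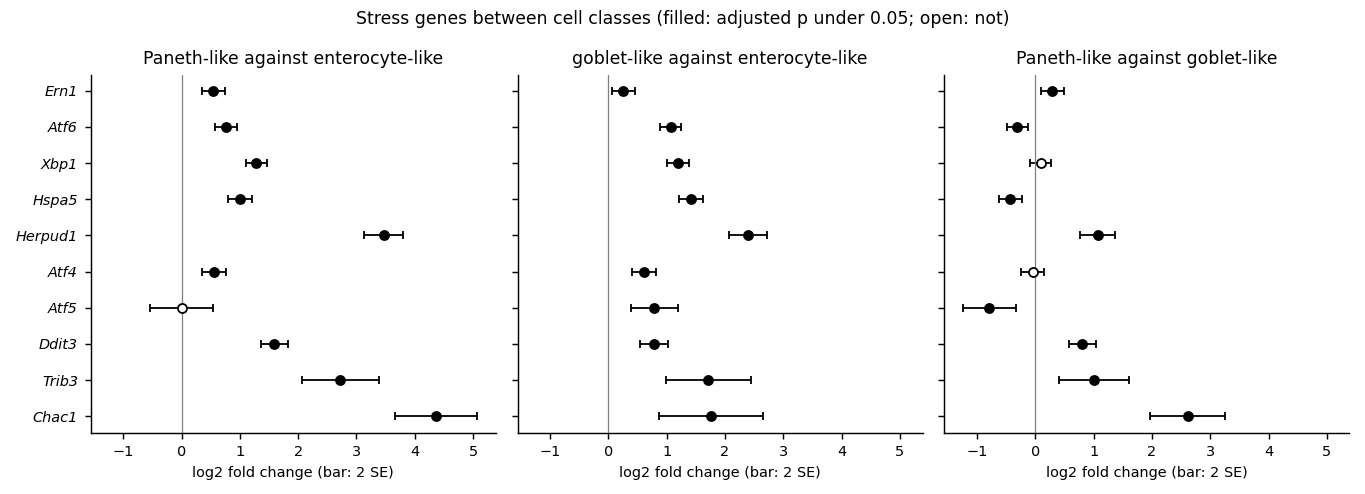
Log2 fold change of the 10 genes (horizontal axis, bars 2 SE to each side) between classes over 6 libraries, filled where the adjusted p was under 0.05. Chac1 stands at 4.37 and Herpud1 at 3.46 in Paneth-like against enterocyte-like cells, and in Paneth-like against goblet-like cells the genes lie on both sides of 0.

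Between the secretory classes the genes parted. In Paneth-like against goblet-like cells, 5 of the 10 genes were higher and 3 lower, where 22.1% of the genes tested were higher and 22.9% lower. The higher ones were Chac1, Ddit3, Trib3, Herpud1 and the sensor Ern1, and the lower ones were Atf5, Hspa5 and Atf6. Chac1 was 6.11-fold higher in Paneth-like cells (log2 2.61 ± 0.32, adjusted p = 1.68e-05), Herpud1 2.102-fold (1.07 ± 0.15), Trib3 2.01-fold (1.01 ± 0.30, adjusted p = 0.00724) and Ddit3 1.75-fold (0.81 ± 0.12). Ern1 was 1.23-fold higher (0.29 ± 0.10, adjusted p = 0.0178).

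Atf5 (log2 -0.79 ± 0.23, adjusted p = 0.0053), Hspa5 (-0.43 ± 0.10, adjusted p = 0.000993) and Atf6 (-0.31 ± 0.09, adjusted p = 0.00633) were each lower in Paneth-like cells in 5 of 6 libraries. Xbp1 (0.09 ± 0.09, adjusted p = 0.424) and Atf4 (-0.05 ± 0.10, adjusted p = 0.743) did not pass the test, with intervals of 2 SE from -0.09 to 0.28 and from -0.25 to 0.16. On library totals, Chac1 was the single gene higher and 7 were lower, as were 10127 of all genes, with 198 higher. Atf6 changed sign when clusters were formed without alignment of libraries (0.29), at a UMI limit set for each library (0.29) and at a mitochondrial limit of 10% (0.0072). Atf4 stood at 0.56, 0.56 and 0.40 in these settings. The call for Trib3 was lost without Fpr2f/f replicate 3 (0.63, adjusted p = 0.103).

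Other properties differed along with the classes. The median UMIs per cell were 20037 in Paneth-like, 4240 in goblet-like and 3344 in enterocyte-like cells. The median mitochondrial shares were 5.19%, 11.6% and 15.2%. With cells of at least 3000 UMIs only, Chac1 stood at 4.93, Herpud1 at 3.56, Ddit3 at 1.81 and Xbp1 at 1.25 on the log2 scale in Paneth-like against enterocyte-like cells, and Trib3 was not tested. The part of the mitochondrial share in the results was not tested.

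The classes held clusters that differed in the same genes. Cluster levels were scaled among the clusters, apart from the class levels, so values of clusters and classes are not on the same scale. Of the 3 larger Paneth-like clusters, cluster 11 (536 cells, led by Mptx2 and defensins) had a median of 52900 UMIs and 1.86% mitochondrial UMIs, cluster 17 (317 cells, led by Rnase1, Ccl9 and Mmp7) 22600 UMIs and 8.37%, and cluster 18 (312 cells, led by Defa21 and Defa22) 3500 UMIs and 15.5%. Chac1 stood at 99.4 ± 35.8 CPM in cluster 11 (n = 6 libraries), 12.9 ± 11.3 in cluster 17 (n = 6) and 41.8 ± 18.9 in cluster 18 (n = 5 libraries with at least 20 cells). Herpud1 stood at 565 ± 51.1, 262 ± 123 and 147 ± 58.9 CPM, and Ddit3 at 94.5 ± 20.2, 31.9 ± 14.3 and 33.2 ± 13.6 CPM. All 3 genes were thus highest in the deepest and least mitochondrial Paneth-like cluster, where Chac1 and Ddit3 did not overlap with cluster 17.

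Hspa5 varied in another way. Its level was alike in clusters 11 and 17, at 880 ± 122 and 890 ± 262 CPM, and lower in cluster 18 at 412 ± 70.3. Among goblet-like clusters it was highest in cluster 20 (240 cells, led by Agr2, Zg16 and Clca1, median 25820 UMIs) at 1448 ± 252 CPM, against 691 ± 110 to 1027 ± 260 in the other 3. Xbp1 was also highest in cluster 20, at 246 ± 20.8 CPM, and in cluster 11 among Paneth-like clusters, at 288 ± 22.0.

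Atf4, Ddit3 and Chac1 divided the enterocyte-like cells. In cluster 1 (1481 cells, led by Creb3l3, Pfkfb3 and Adh6a, median 2646 UMIs) Atf4 stood at 417 ± 45.2 CPM, against 226 ± 42.9 in cluster 2 (1326 cells, led by Fabp6) and 132 ± 12.03 in cluster 12 (513 cells, led by Reg1 and Fabp1, median 31180 UMIs). The 3 clusters did not overlap in Atf4. The cluster 1 range of 364 to 481 CPM overlapped with Paneth-like cluster 11 (353 to 418) and goblet-like clusters 15 (389 to 545) and 20 (298 to 432). It lay above Paneth-like clusters 17 and 18 and goblet-like clusters 10 and 13. Ddit3 followed the same order at 34.7 ± 12.7, 23.8 ± 11.3 and 11.4 ± 2.86 CPM, with overlap between neighbours. Chac1 stood at 9.48 ± 6.84 CPM in cluster 1 and at 0.50 ± 0.572 and 0.323 ± 0.331 in clusters 2 and 12. Not every secretory cluster lay above these 3. In mean CPM, Paneth-like cluster 18 stood at 48.5 for Ern1, against 56.5, 68.7 and 58.8 in clusters 1, 2 and 12. For Atf6 it stood at 37.9, against 43.8, 69.0 and 56.7, while its Herpud1 level lay above all 3. Goblet-like cluster 13 stood at 42.8 for Ern1, and at 86.9 for Xbp1 against 73.8, 49.0 and 119. Chac1 stood at 1.44 and 4.08 in goblet-like clusters 10 and 13, under cluster 1, and at 17.3 and 13.2 in clusters 15 and 20, above it. For Ddit3, Paneth-like clusters 17 and 18 (31.9 and 33.2) and goblet-like clusters 10 and 13 (20.3 and 34.1) lay under cluster 1. Paneth-like cluster 11 and goblet-like clusters 15 and 20 lay above it. For Hspa5, Paneth-like cluster 18 (412) lay under clusters 1 and 12 (415 and 492).

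**Figure D3:**
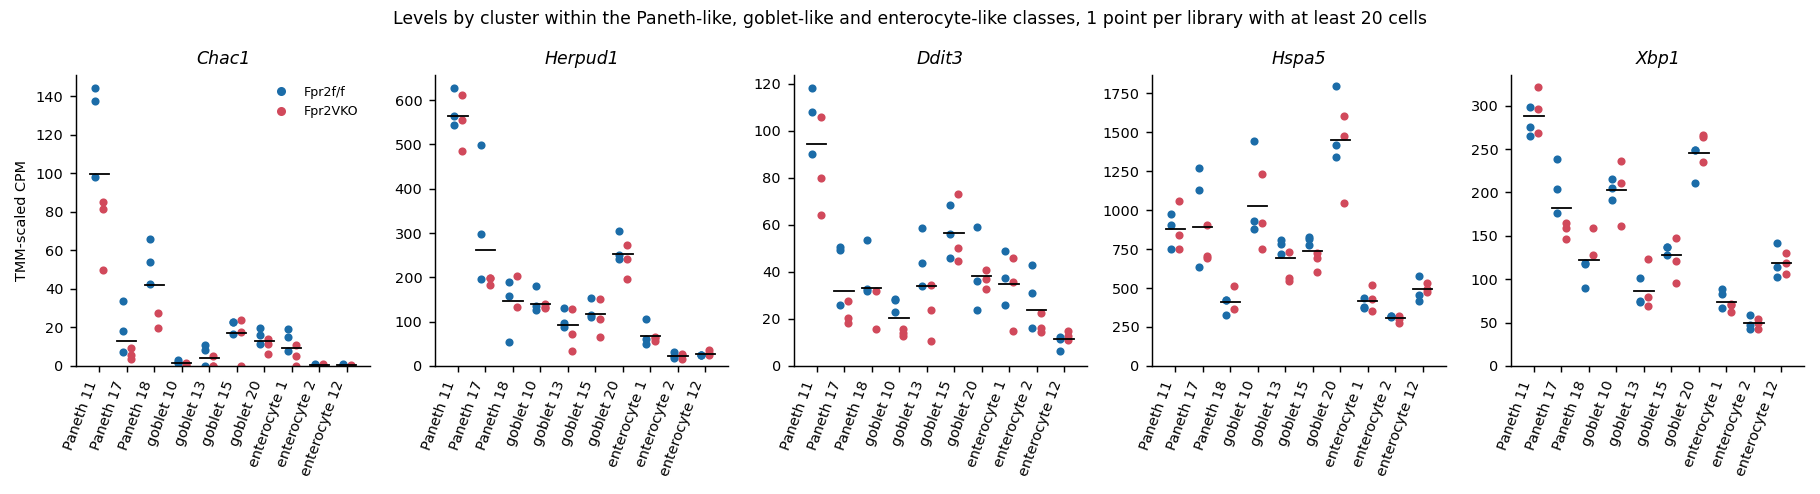
TMM-scaled CPM of 5 stress genes (vertical axis, 1 panel per gene) in the Paneth-like, goblet-like and enterocyte-like clusters, 1 point per library with at least 20 cells of the cluster, blue for Fpr2f/f and red for Fpr2VKO, with a line at the mean. Chac1, Herpud1 and Ddit3 were highest in Paneth-like cluster 11, and Hspa5 in goblet-like cluster 20.

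The wider pathway was read from 5 lists of 111 other genes, of which 107 were tested between the classes. The lists too were chosen with earlier results of these data known, so their counts are a description. In Paneth-like against enterocyte-like cells 92 of the 107 were higher and 8 lower, where 36.4% and 35% of all genes were. Their median log2 fold change was 1.33 against 0.02 for all genes. In goblet-like against enterocyte-like cells 91 were higher and 6 lower (median 1.16), where 32.8% and 31.9% of all genes were. In Paneth-like against goblet-like cells 33 were higher and 27 lower (median -0.03), where 22.1% and 22.9% of all genes were. On library totals the first of these splits became 41 higher and 49 lower, and the last 5 higher and 98 lower. On that scale the median gene stood at -1.45 and -1.36, and most of all genes were lower in both comparisons, as given above.

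Among sensors and regulators, 13 of 18 were higher and 4 lower in Paneth-like than in enterocyte-like cells, where 36.4% of all genes were higher and 35% lower. Nupr1, a stress-induced chromatin protein, rose from 4.84 ± 2.49 CPM in enterocyte-like to 222 ± 63.8 in goblet-like and 1533 ± 375 in Paneth-like cells (Paneth-like against enterocyte-like log2 8.22 ± 0.26). Ern2, the epithelial relative of Ern1, stood at 1.66 ± 0.797 CPM in enterocyte-like, 65.9 ± 13.9 in Paneth-like and 179 ± 29.8 in goblet-like cells, and was lower in Paneth-like than goblet-like cells by 1.45 ± 0.10 on the log2 scale. Creb3l4, a membrane-bound transcription factor of secretory cells, was higher in both secretory classes than in enterocyte-like cells, at 115 ± 17.9 and 139 ± 17.2 against 1.53 ± 0.457 CPM. Creb3l3, its relative in absorptive cells, was lower, at 7.23 ± 4.62 and 5.87 ± 2.15 against 146 ± 39.0 CPM, and the eIF2 kinase gene Eif2ak1 was lower in both secretory classes too.

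Chaperone and folding genes were mostly higher in secretory cells. In Paneth-like against enterocyte-like cells 25 of 26 were higher, where 36.4% of all genes were higher and 35% lower. Only Canx (calnexin) was lower (log2 -0.52 ± 0.08), a difference also found in goblet-like cells (-0.50 ± 0.08). Agr2, a disulfide isomerase needed for mucin folding, stood at 17931 ± 2004 CPM in goblet-like, 5584 ± 1097 in Paneth-like and 85.4 ± 35.7 in enterocyte-like cells. In Paneth-like against enterocyte-like cells the selenoprotein gene Selenom (6.09 ± 0.14) was at the head, with Agr2 (5.98 ± 0.18) and Fkbp11 (5.22 ± 0.11) next. Between the secretory classes 5 of the 26 were higher and 13 lower in Paneth-like cells, where 22.1% of all genes were higher and 22.9% lower, among the lower ones Agr2 (-1.69 ± 0.15), Txndc5 (-1.22 ± 0.08) and Pdia3 (-1.01 ± 0.10), and among the higher ones Ero1lb (1.69 ± 0.13) and Dnajb9 (0.64 ± 0.13).

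All 22 genes of translocation into the ER and signal peptide removal were higher in both secretory classes than in enterocyte-like cells. Among all genes tested, 36.4% were higher and 35% lower in Paneth-like cells, and 32.8% and 31.9% in goblet-like cells. Sec11c, a signal peptidase subunit, stood at 467 ± 56.2 CPM in Paneth-like, 427 ± 53.9 in goblet-like and 71.4 ± 15.4 in enterocyte-like cells. Of ER-associated degradation, 12 of 15 tested genes were higher in Paneth-like and 14 of 15 in goblet-like cells, none lower, with Edem1 (1.72 ± 0.10) and Edem3 (1.97 ± 0.09) at the head in Paneth-like and goblet-like cells.

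Targets of ATF4 and the amino acid response had the largest median in Paneth-like against enterocyte-like cells, 2.27 over 26 tested genes, of which 20 were higher and 3 lower, where 36.4% of all genes were higher and 35% lower. Vldlr, a lipoprotein receptor, stood at 58.2 ± 8.51 CPM in Paneth-like against 0.45 ± 0.289 in enterocyte-like cells, the serine synthesis gene Psat1 at 50.6 ± 12.7 against 3.29 ± 0.684, and the folate enzyme gene Mthfd2 at 91.3 ± 12.3 against 8.53 ± 2.07. The tRNA synthetase gene Nars (-0.37 ± 0.09), the transporter subunit gene Slc3a2 (-0.28 ± 0.12) and Cebpg (-0.26 ± 0.09) were lower. In goblet-like cells 22 were higher and 2 lower, where 32.8% and 31.9% of all genes were. Wars (3.71 ± 0.10), Mthfd2 (2.68 ± 0.13) and Asns (2.49 ± 0.12) were among the higher ones. Against goblet-like cells, 14 were higher and 3 lower in Paneth-like cells, where 22.1% and 22.9% of all genes were, with Shmt2 (1.57 ± 0.16), Psat1 (1.29 ± 0.16) and Ddit4 (1.00 ± 0.23) among the higher ones and Wars (-0.77 ± 0.09) among the lower.

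**Figure D4:**
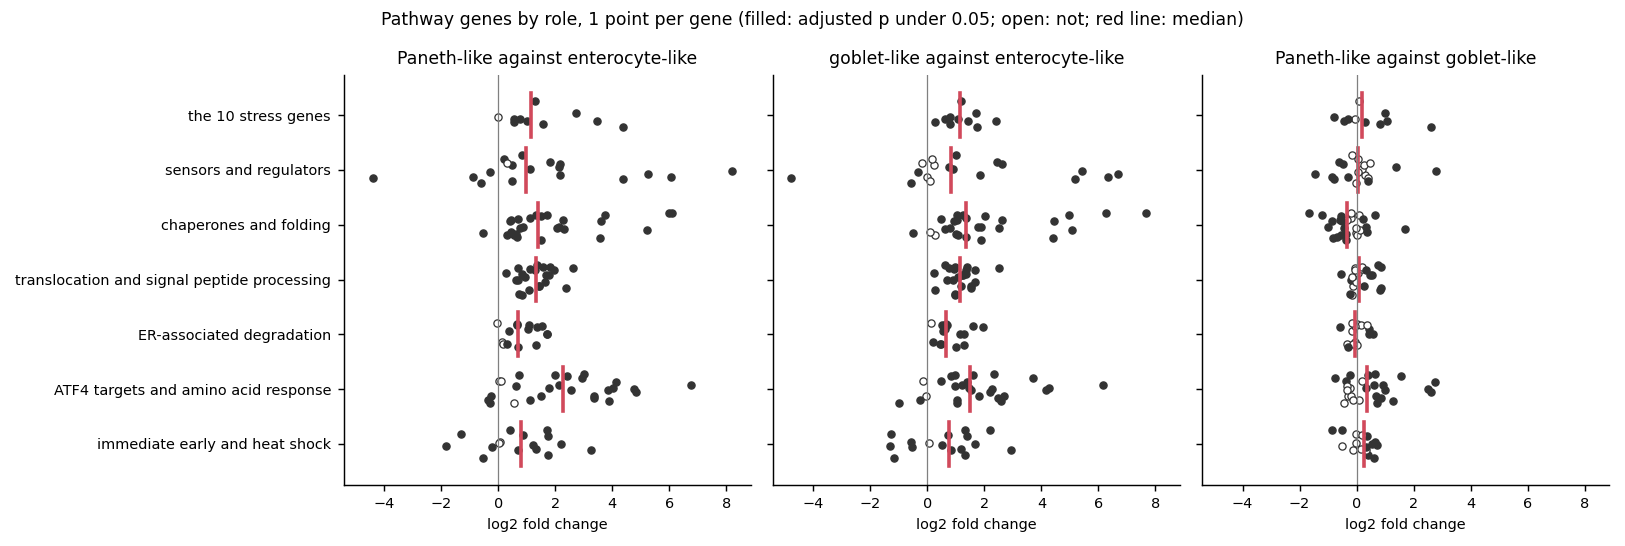
Log2 fold changes (horizontal axis) of the 10 stress genes, the 5 pathway lists and a list of immediate early and heat shock genes, 1 point per gene, filled where the adjusted p was under 0.05, with a red line at the median of each list. The 2 left panels lie mostly right of 0, with 92 and 91 of the 107 genes of the 5 lists higher, where 36.4% and 32.8% of all genes were. The right panel lies around 0.

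Immediate early and heat shock genes, which rise when tissue is dissociated, moved between the classes as well. In Paneth-like against enterocyte-like cells 10 of 16 tested were higher and 4 lower (median 0.79), in goblet-like cells 10 higher and 5 lower (median 0.76), and between the secretory classes 7 higher and 2 lower in Paneth-like cells. Of all genes 36.4% were higher and 35% lower in the first comparison, 32.8% and 31.9% in the next, and 22.1% and 22.9% in the last. Fosb stood at 431 ± 39.9 CPM in Paneth-like, 350 ± 79.3 in goblet-like and 45.0 ± 20.7 in enterocyte-like cells. The heat shock genes Hspa1a (-1.83 ± 0.36) and Hspa1b (-1.30 ± 0.22) were lower in Paneth-like than in enterocyte-like cells. The part of dissociation in the stress gene results was not tested.

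Genes with levels most like those of 3 members were ranked over 48 sums (8 classes in 6 libraries, 3070 genes with a mean of at least 50 CPM) by Pearson correlation of log2 levels, which is a description because the sums share libraries and classes. For Xbp1 these were Tram1 (0.962), Serp1 (0.961), Tm9sf3 (0.960), Sec61b (0.954) and Kdelr2 (0.954). Hspa5 was most like Dnajc3 (0.958), Xbp1 (0.950), C1galt1c1 (0.947), Kdelr2 (0.947) and Manf (0.942). Among those nearest to Ddit3 were Dnajb9 (0.927), Ifrd1 (0.914), Sqstm1 (0.912) and Wsb1 (0.891), and of these 4 Dnajb9 belongs to the pathway lists.

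The study asked what loss of epithelial Fpr2 changes, and the 10 genes were compared between the genotypes over all epithelial cells first. No member passed the test (0 of 10, with 3 at an unadjusted p under 0.05, and 0 by DESeq2), where 0.0483% of 16564 genes did and 9.21% had an unadjusted p under 0.05. Xbp1 was at 124, 106 and 102 CPM in Fpr2f/f, against 105, 121 and 102 in Fpr2VKO libraries (log2 -0.02 ± 0.12, adjusted p = 0.972). Hspa5 was at 645, 473 and 510 against 543, 534 and 447 CPM (-0.09 ± 0.14, adjusted p = 0.861). Both overlapped between the groups.

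In 4 of the 10 genes all 3 Fpr2VKO libraries lay under all 3 Fpr2f/f libraries over all epithelial cells, as did 7.14% of all genes. Chac1 was at 4.97, 8.94 and 5.77 CPM in Fpr2f/f, against 4.205, 3.70 and 4.68 in Fpr2VKO libraries (-0.66 ± 0.22, adjusted p = 0.43). Atf5 was at 8.71, 7.90 and 8.63 against 4.98, 5.64 and 6.91 CPM (-0.53 ± 0.15, adjusted p = 0.351). Trib3 (-0.61 ± 0.27) and Atf6 (-0.14 ± 0.10) were the other two. None of the 4 differences passed the adjusted test. Classes differed in their share of the cells, so these sums also hold differences in cell make-up.

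In stem-like cells 0 of the 8 members tested passed, where 0.208% of the genes did, and in TA-like cells 0 of 9, where 0.0624% did. At an unadjusted p under 0.05 there were 1 and 2, where 7.27% and 8.54% of all genes had such a p, and by DESeq2 0 in each. Chac1 and Trib3 in stem-like cells, and Trib3 in TA-like cells, had too few UMIs for the test, with 18, 14 and 20 in all. The tested differences lay between -0.94 ± 0.35 (Atf5) and 0.51 ± 0.34 (Ddit3) in stem-like cells and between -1.47 ± 0.41 (Chac1) and -0.07 ± 0.14 (Atf6) in TA-like cells.

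Enterocyte-like cells gave the single call among the members. Chac1 was at 2.34, 8.75 and 2.095 CPM in Fpr2f/f, against 0.606, 0.689 and 0.497 CPM in Fpr2VKO libraries, with 6, 58 and 10 against 3, 4 and 2 UMIs, a log2 difference of -2.95 ± 0.65 (adjusted p = 0.0296), 1 of 9 members tested where 4.2% of the genes passed. Free RNA moved in the same direction, with Chac1 at 2.79, 6.86 and 4.18 CPM in Fpr2f/f, against 1.67, 2.21 and 1.53 CPM in Fpr2VKO libraries, and its part in the result was not tested. Only Fpr2f/f replicate 2 held more Chac1 in enterocyte-like cells than in its own free RNA, at 9.19 CPM on the same unscaled measure. The call was lost without that library (-1.83, adjusted p = 0.176), without Fpr2VKO replicate 1 (-2.94, adjusted p = 0.0602), replicate 2 (-3.06, adjusted p = 0.137) or replicate 3 (-2.84, adjusted p = 0.0861), and without alignment of libraries (-2.56, adjusted p = 0.201). With mitochondrial limits of 10% or 40%, a UMI limit per library, doublets kept or cells of at least 3000 UMIs, Chac1 had too few counts for the test, and DESeq2 gave no adjusted p for it.

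The make-up of the enterocyte-like class moved with the groups. Cluster 1, in which Chac1 was highest, held 52.9%, 66.2% and 25.7% of the enterocyte-like cells in Fpr2f/f, against 35.3%, 23.8% and 23.0% in Fpr2VKO libraries, and cluster 12 held 10.99%, 5.68% and 7.89% against 18.01%, 40.6% and 32.3%. These are shares of cells, whereas the tested sums add UMIs. The deeper cluster 12, in which Chac1 and Atf4 were lowest, therefore weighs more in the sums than its share of cells, and its part was not tested. Depth and mitochondrial share moved with the groups as well: enterocyte-like cells had median UMIs of 2036, 3294 and 3578 against 4129, 4162 and 4280, and mitochondrial medians of 15.1%, 15.2% and 13.98% against 16.3%, 15.3% and 15.5%, without overlap, and their part in the result was not tested. Within cluster 1 Chac1 stood at 7.51, 19.0 and 14.7 CPM in Fpr2f/f, against 4.90, 10.8 and 0 CPM in Fpr2VKO libraries, and the groups overlapped.

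Atf4 and Atf6 also lay lower in all 3 Fpr2VKO libraries in enterocyte-like cells, so that 3 of the 9 members did, as did 12.9% of the genes tested. Atf4 was at 273, 279 and 229 CPM in Fpr2f/f, against 216, 176 and 177 in Fpr2VKO libraries (-0.48 ± 0.15, adjusted p = 0.0718), and it too was highest in cluster 1. Atf6 was at 72.2, 73.0 and 73.3 against 56.2, 60.6 and 61.4 CPM (-0.32 ± 0.13, adjusted p = 0.142). Ddit3 (-0.63 ± 0.23, adjusted p = 0.108), Xbp1 (0.19 ± 0.17) and Hspa5 (0.11 ± 0.15) overlapped between the groups. With the replicate number as a block Ddit3 passed, as given in the closing section. Trib3, with 31 UMIs, was not tested.

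Of the 100 genes of the 5 lists tested in enterocyte-like cells, 3 passed, a share no higher than the 4.2% of all genes. The signal peptidase subunit gene Spcs1 was higher in Fpr2VKO libraries, at 175, 224 and 186 CPM against 146, 118 and 100.2 in Fpr2f/f (log2 0.67 ± 0.16, adjusted p = 0.033). The chaperone gene Sdf2l1 was higher as well (0.88 ± 0.23, adjusted p = 0.0424), and Syvn1, the ubiquitin ligase of ER-associated degradation, was lower at 33.3, 26.9 and 30.8 against 46.1, 61.4 and 49.2 CPM (-0.82 ± 0.16, adjusted p = 0.0231). The 22 translocation genes had a median of 0.30 against -0.01 for all genes. The immediate early gene Fosb was lower at 33.9, 30.1 and 28.3 against 45.7, 83.9 and 47.8 CPM (-0.98 ± 0.22, adjusted p = 0.0328). The calls for Spcs1, Sdf2l1, Syvn1 and Fosb were each lost without Fpr2f/f replicate 2 (adjusted p = 0.126, 0.104, 0.1004 and 0.102), without Fpr2VKO replicate 2 or 3, and in all 6 settings that changed which cells or clusters were used. Over the 16 alternatives the log2 difference of Spcs1 ranged from 0.04 to 0.83 and that of Sdf2l1 from 0.19 to 1.06. Syvn1 ranged from -0.89 to -0.20 and Fosb from -1.13 to -0.25. Over all genes the calls in enterocyte-like cells fell from 462 to 17 without Fpr2f/f replicate 2, to 20 and 31 when Fpr2VKO replicate 2 or 3 was left out, and to between 1 and 8 in those 6 settings.

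In Paneth-like cells 0 of 10 members passed, with 5 at an unadjusted p under 0.05 and 0 by DESeq2, where 0.00969% of the genes did, that is 1 gene, and 6.69% had an unadjusted p under 0.05. Chac1 was at 77.7, 74.4 and 66.0 CPM in Fpr2f/f, against 48.0, 30.1 and 49.9 in Fpr2VKO libraries (-0.79 ± 0.18, adjusted p = 0.138). Atf5 was at 11.4, 7.17 and 14.3 against 4.004, 3.04 and 4.91 CPM (-1.41 ± 0.37, adjusted p = 0.249), and Ddit3 at 80.8, 72.9 and 82.3 against 69.4, 49.6 and 57.7 CPM (-0.43 ± 0.16, adjusted p = 0.633). These 3 did not overlap between the groups, as 5.31% of the genes did in this direction. Chac1 passed in the fit without a filter on low counts (-0.74, adjusted p = 0.0158), and Atf5 with a UMI limit per library (-2.53, adjusted p = 0.0232) and without alignment of libraries (-2.35, adjusted p = 0.0285). The shares of all genes called in these alternative fits are not given here, and 0.00969% is that of the main fit. Chac1 also passed with the replicate number as a block, as given in the closing section.

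Depth and markers of goblet cells also separated the groups in Paneth-like cells. The median UMIs were 11403, 9288 and 14375 in Fpr2f/f, against 29869, 30602 and 24124 in Fpr2VKO libraries. The 9 goblet markers, all above 0, summed to 26276, 22544 and 28556 CPM against 17923, 18117 and 18240 CPM. The part of both in the Chac1, Atf5 and Ddit3 values was not tested.

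The Paneth-like clusters differed in share too. Cluster 11, in which Chac1 was highest, made up more of the Paneth-like cells in Fpr2VKO libraries (43.9%, 63.4% and 50.2%) than in Fpr2f/f libraries (33.3%, 35.4% and 37.0%). Within cluster 11 Chac1 stood at 144, 137 and 98.2 CPM in Fpr2f/f, against 85.2, 49.99 and 81.6 CPM in Fpr2VKO libraries, again with no overlap. The share of all genes without overlap in this cluster was not counted, and the part of the make-up in the Chac1 difference was not tested. Defensins and Lyz1 took up 38.2%, 46.1% and 49.0% of Paneth-like UMIs in Fpr2f/f, against 42.7%, 43.7% and 46.8% in Fpr2VKO libraries.

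In goblet-like cells 0 of the 9 members tested passed, with 1 at an unadjusted p under 0.05 and 0 by DESeq2, where 0.167% of the genes did and 7.89% had an unadjusted p under 0.05. Ddit3 was at 44.4, 54.3 and 38.7 CPM in Fpr2f/f, against 32.4, 30.7 and 36.7 in Fpr2VKO libraries (-0.51 ± 0.16, adjusted p = 0.313). It was the 1 member in which all Fpr2VKO libraries lay under all Fpr2f/f libraries, as did 5.71% of the genes. The make-up of the class separated the groups as well, with cluster 13 at 37.4%, 30.4% and 41.8% of the goblet-like cells in Fpr2f/f, against 22.4%, 19.3% and 23.4% in Fpr2VKO libraries, and cluster 20 at 10.6%, 14.6% and 7.48% against 15.6%, 22.0% and 18.8%. Within cluster 10 Ddit3 stood at 28.5, 27.97 and 22.7 CPM in Fpr2f/f, against 14.1, 12.8 and 15.5 in Fpr2VKO libraries, and within clusters 13, 15 and 20 the groups overlapped. The part of the make-up in the Ddit3 difference was not tested. Hspa5 was at 1798, 1269 and 1241 against 1609, 1383 and 1074 CPM (-0.10 ± 0.16, adjusted p = 0.936). Of the 5 lists, no gene passed in Paneth-like or goblet-like cells (0 of 108 and 0 of 104, with 6 and 7 at an unadjusted p under 0.05 and 0 by DESeq2), where 6.69% and 7.89% of all genes had such a p.

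**Figure D5:**
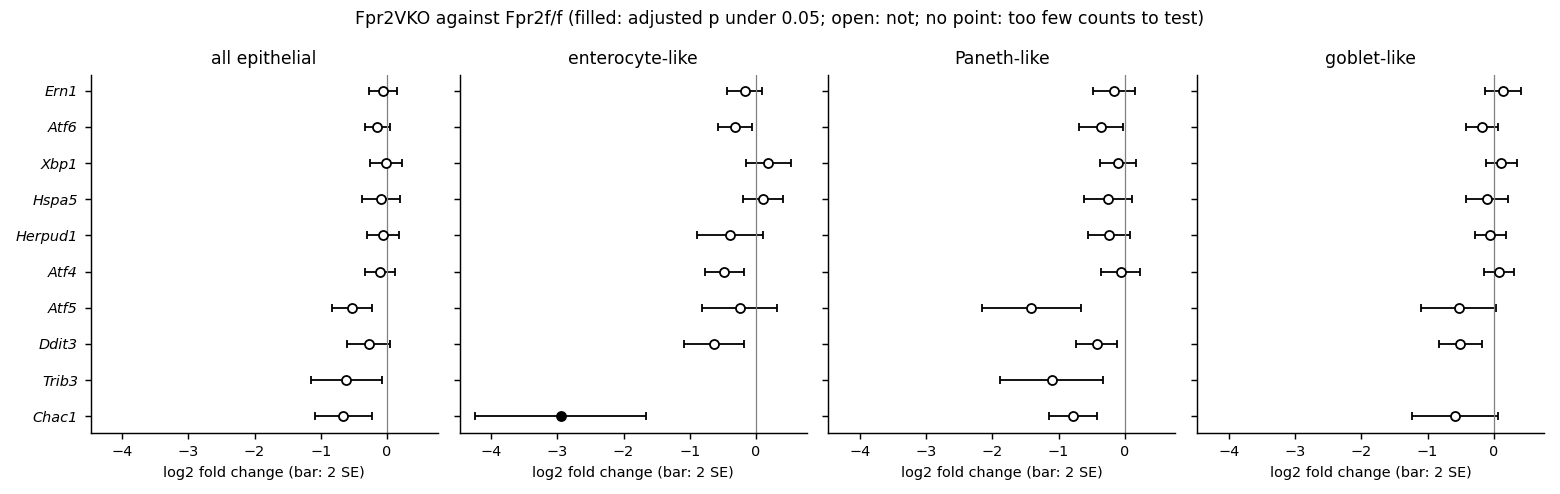
Log2 fold change of the stress genes in Fpr2VKO against Fpr2f/f libraries (horizontal axis, bars 2 SE to each side, 3 against 3 libraries) over all epithelial cells and in 3 classes, filled where the adjusted p was under 0.05. Chac1 in enterocyte-like cells, at -2.95, is the single filled point, and genes with too few counts have no point.

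Whether the difference between secretory and absorptive cells itself differed between the genotypes was tested by an interaction. For Paneth-like against enterocyte-like cells 0 of 10 members passed, with 5 at an unadjusted p under 0.05 and 0 by DESeq2, where 0.656% of the genes did and 13.2% had an unadjusted p under 0.05. For goblet-like against enterocyte-like cells it was 0 of 10, with 2 at an unadjusted p under 0.05 and 0 by DESeq2, where 0.0621% did and 13.7% had such a p. The largest estimates were those of Chac1, 2.14 ± 0.70 (adjusted p = 0.165) and 2.40 ± 0.77 (adjusted p = 0.169). Both rest on 9 Chac1 UMIs in all in the enterocyte-like cells of the Fpr2VKO libraries. Lowest in adjusted p for goblet-like cells was Atf4, at 0.55 ± 0.15 (adjusted p = 0.0912), with 0.40 ± 0.15 (adjusted p = 0.221) for Paneth-like cells.

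Among the 107 genes of the 5 lists, 4 passed for Paneth-like against enterocyte-like cells, all with a smaller difference between these classes in Fpr2VKO libraries, where 0.656% of all genes passed and 65 of those 74 genes had this direction. These were Ssr2 (-0.72 ± 0.16, adjusted p = 0.0342) and Ssr4 (-0.59 ± 0.14, adjusted p = 0.0444) of the translocon-associated complex, Sec61b of the translocon (-0.58 ± 0.14, adjusted p = 0.0437) and the ER stress protein gene Manf (-0.63 ± 0.15, adjusted p = 0.0418). Sec61b stood in enterocyte-like cells at 395, 340 and 256 CPM in Fpr2f/f, against 424, 508 and 473 in Fpr2VKO libraries, and in Paneth-like cells at 1139, 1091 and 1123 against 1132, 1022 and 1117 CPM. Over the 16 alternatives the number of such genes ranged from 0 to 10, with 0 on library totals, and the calls held in 4 of them for Ssr2 and Manf, 3 for Ssr4 and 2 for Sec61b. The estimates ranged from -0.89 to -0.01 for Ssr2 and from -0.78 to 0.02 for Manf. For Ssr4 they ranged from -0.74 to -0.08 and for Sec61b from -0.69 to 0.005.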

How the data were processed

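The authors deposited raw UMI counts per gene and barcode for 6 libraries, aligned to mm10 with MobiVision, and the submitters' processing notes name Seurat 4.0. The annotation version and the strand setting are not given in the sources used here. Barcodes with at least 1000 UMIs, at least 500 genes and at most 20% mitochondrial UMIs were kept. Doublets were scored against artificial ones (25% of the pool), and the top 0.8% per 1000 cells were removed. Libraries were aligned and cells clustered (2000 variable genes without the pathway genes, 30 principal components, 20 neighbours, resolution 1), and clusters were named where markers stood at least 0.5 above the other clusters (mean log2 fold) with at least 3 markers in 10% of cells. Counts were summed per library and class (at least 20 cells) and tested with edgeR 4.0.16 in R 4.3.3 (quasi-likelihood, TMM, Benjamini-Hochberg adjustment over all genes tested). Classes were compared over 18 sums of 3 classes in 6 libraries, and genotypes as 3 against 3 libraries within a class. DESeq2 1.42.0 and 15 other settings served as alternatives. SE is the log2 fold change divided by the square root of F.

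Named pathway genes were the 3 called genes with the largest change per list and direction, with a mean of at least 20 CPM. The members and lists were chosen with earlier results of these data known. Gene positions came from GENCODE M21 on GRCm38, promoters from RefSeq on GRCm38.p6. The fits were tested on simulated counts with known changes. Intervals cover the spread between libraries only. For likeness, the 5 genes with the highest correlation per gene were taken, and 1 of them is not reported here.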

Additional observations from a re-analysis of the deposited data

Results flagged for a closer look

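In 6 of 30 sets of 6 libraries (10 genes in 3 classes) a single library stood far from the others. In Paneth-like cells this was Fpr2f/f replicate 3, the highest library for Atf6 (179 CPM), Ern1 (145 CPM) and Herpud1 (641 CPM). In enterocyte-like cells it was Fpr2f/f replicate 2, the highest for Chac1 (8.75 CPM), Ern1 (80.0 CPM) and Herpud1 (64.1 CPM). The gap to the nearest library took up 0.632 to 0.781 of the whole range. For independent sets from a single group, chance gives such a gap in about 1 in 20. The 30 sets shared their libraries and held both genotypes, so the 6 flags are not read against that rate.

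For 4 pathway genes the difference between Paneth-like and enterocyte-like cells itself differed between the genotypes in the interaction test (edgeR), by -0.72 for Ssr2 (adjusted p = 0.0342), -0.63 for Manf (adjusted p = 0.0418), -0.58 for Sec61b (adjusted p = 0.0437) and -0.59 for Ssr4 (adjusted p = 0.0444) on the log2 scale, where 0.656% of all genes passed. At a mitochondrial limit of 40% these estimates were -0.01, 0.02, 0.005 and -0.08. Ssr2 stood in enterocyte-like cells at 121, 106 and 88.4 CPM in Fpr2f/f and 148, 163 and 145 CPM in Fpr2VKO libraries, and in Paneth-like cells at 317, 204 and 244 against 276, 204 and 200 CPM.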

How the results depend on the processing

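Over 16 alternative settings, 395 of 430 repeats of the called member values kept direction and call, 23 lost the call and 12 changed sign. Of 1204 repeats of uncalled values, 21 became calls in the same direction and 5 calls in the other. Without the TMM factor the sign changed in Paneth-like against enterocyte-like cells for Xbp1 (-0.16), Ern1 (-0.91), Atf4 (-0.89), Atf5 (-1.48), Atf6 (-0.69) and Hspa5 (-0.45), and against goblet-like cells for Xbp1 (-1.27), Ern1 (-1.08), Ddit3 (-0.56), Trib3 (-0.35) and Herpud1 (-0.28), where the scaling itself shifts all genes. At a mitochondrial limit of 10%, a UMI limit per library and without alignment, Atf4 (0.40, 0.56 and 0.56) and Atf6 (0.0072, 0.29 and 0.29) changed sign in Paneth-like against goblet-like cells, and the cause was not tested.

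The count of members called between genotypes moved as follows. In both interactions it was 1 in place of 0 without a filter on low counts (0.976% and 1.16% of all genes called), and 0 to 1 with 1 library left out, the 1 arising without Fpr2f/f replicate 3 (Atf4, 0.63 and 0.69, with 1.08% and 0.696% of all genes called), in place of 0.656% and 0.0621%. In stem-like cells it was 2 in place of 0 with a UMI limit per library or no alignment (Atf5 and Hspa5), where 11% and 7.13% of all genes were called in place of 0.208%. In TA-like cells it was 0 to 1 with 1 library left out, the 1 arising without Fpr2f/f replicate 1 (Chac1, -1.57, with 4.94% of all genes called in place of 0.0624%). In enterocyte-like cells it ranged from 0 to 3 in place of 1 with 1 library left out, with 3 without Fpr2f/f replicate 3, and was 0 at mitochondrial limits of 10% and 40%, a UMI limit per library, with doublets kept, without alignment and with at least 3000 UMIs. The main fit called 4.2% of all genes there, and in the settings with 0 the calls over all genes fell as well, as given above. In Paneth-like cells it was 1 in place of 0 without the filter (Chac1), with a UMI limit per library (Atf5, -2.53) and without alignment (Atf5, -2.35). The main fit called 0.00969% of all genes there, a share that does not hold for these alternative fits. Their own shares, and that in enterocyte-like cells without Fpr2f/f replicate 3, are not given here, so these calls lack a background.

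The labels tie no replicate number to a litter, batch or animal, and the main fits between genotypes held no block for it. Over all epithelial cells same-numbered libraries correlated at -0.08, -0.06 and 0.28, where the other pairs lay between -0.16 and 0.21. In enterocyte-like cells they correlated at -0.12, 0.004 and 0.21, where the other pairs lay between -0.20 and 0.21. In Paneth-like cells they correlated at 0.02, 0.13 and 0.19, where the other pairs lay between -0.17 and 0.04. Whether the numbers pair the libraries is therefore not settled. With the replicate number as a block, 2 members were called in enterocyte-like cells (Chac1 and Ddit3) and 1 in Paneth-like cells (Chac1, -0.82, adjusted p = 0.0255), in place of 1 and 0, where 7.98% and 0.407% of all genes were called in place of 4.2% and 0.00969%.

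Trib3 and Atf5 rest on 31 to 184 UMIs per class in the 3 classes compared, which limits their precision.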
